A study of Mus musculus with 9 samples.

Results

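A set of 10 genes of the netrin and netrin-G systems was followed on 9 arrays of 3T3 cells, a permanent line of mouse embryo fibroblasts. The set comprised the netrin receptor genes Unc5a, Unc5b, Unc5c, Unc5d, Dcc and Neo1, the netrin genes Ntn1 and Ntn4, and the genes Lrrc4 and Lrrc4c, whose products bind netrin-G proteins. Each gene was taken as the transcript cluster that the platform annotation gives under its symbol alone, and the 10 genes were all measured among 19698 such genes. The family was selected on earlier results of these arrays, in which Unc5c and Lrrc4c lay among the genes with the lowest levels in knockdown cells relative to control cells. The knockdown differences of those genes are therefore descriptions and carry no test. The response to tumour necrosis factor (TNF-α) was not a ground for the choice, although both comparisons share the TNF-treated control arrays.

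The arrays fell into 3 groups of 3. BAF-knockdown cells were stimulated for 1 h with mouse TNF-α (5 ng per ml), control cells received the same treatment, and a further set of control cells was left unstimulated. The knockdown cells stably expressed a single short hairpin RNA, from the U6 promoter of a retroviral vector that also carries green fluorescent protein, directed at a sequence common to Brg1 (gene Smarca4) and Brm (gene Smarca2), the ATPases of the BAF nucleosome remodelling complex, and were sorted for high fluorescence. The sources used here do not say what the control cells had been transduced with, and unstimulated knockdown cells were not analysed here. Subconfluent cultures were used throughout, and the replicates were prepared on different days.

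Netrins are secreted, laminin-related proteins that steer growing axons and migrating cells. Receptors of the DCC and neogenin type mediate attraction to netrin-1, UNC5 receptors mediate repulsion and, without ligand, can promote cell death. The netrin-G proteins, by contrast, are tethered to the membrane and bind the leucine-rich repeat proteins of the NGL group at synapses, of which NGL-1 is encoded by Lrrc4c and NGL-2 by Lrrc4. Outside the nervous system, netrins and their receptors are known from branching epithelia, vessels and connective tissue cells.

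The promoters of Unc5c and Lrrc4c are shown because these genes had the largest differences of the family in the knockdown, and their CpG content is marked because the study's methods annotate promoters by CpG islands. Both are RefSeq sequences on GRCm38.p6, each running from 250 bases before to 50 bases after the annotated start, written 5′ to 3′ with every CG dinucleotide in capitals. The Unc5c promoter lies at chr3:141465314-141465613 and the Lrrc4c promoter at chr2:96317919-96318218, both on the plus strand.
Unc5c: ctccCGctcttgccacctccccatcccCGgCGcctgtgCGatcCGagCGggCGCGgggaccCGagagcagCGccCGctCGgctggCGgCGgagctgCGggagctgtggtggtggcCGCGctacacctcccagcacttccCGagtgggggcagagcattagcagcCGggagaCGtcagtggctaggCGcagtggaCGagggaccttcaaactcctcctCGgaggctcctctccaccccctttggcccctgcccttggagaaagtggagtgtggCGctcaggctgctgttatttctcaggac
Lrrc4c: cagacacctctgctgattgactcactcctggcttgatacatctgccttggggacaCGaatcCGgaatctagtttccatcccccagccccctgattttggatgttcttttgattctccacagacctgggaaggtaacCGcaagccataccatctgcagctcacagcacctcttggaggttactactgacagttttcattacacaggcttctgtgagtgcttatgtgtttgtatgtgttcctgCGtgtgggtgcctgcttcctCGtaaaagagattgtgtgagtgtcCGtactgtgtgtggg
The Unc5c window held 24 CG dinucleotides, with a GC content of 68.3% and an observed over expected CpG ratio of 0.69. The Lrrc4c window held 6, with a GC content of exactly 50% and a ratio of 0.32. The study's methods define a CpG island by a GC content above 50% with a ratio above 0.6, over a longer window centred on the start. In the windows used here both limits were met by Unc5c and not by Lrrc4c, and the study's own classes may differ. Of the 7 genes of the family with a promoter in the RefSeq table, 5 met both limits (Unc5a, Unc5b, Unc5c, Neo1 and Ntn4) and Lrrc4 and Lrrc4c did not, against 33.3% of all 32851 promoters of that length. No entry was found for Unc5d, Dcc and Ntn1.

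Short motifs were searched on both strands of the same windows. The letters TATAAA stood in none of the 7 promoters and in 13.6% of all promoters. The AP-1 type motif TGANTCA stood once in the Lrrc4c promoter and in none of the other 6, against 7.81% of all promoters. These motifs did not overlap each other, since TATAAA had no match, and a match of letters is no measurement of binding.

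Levels are given as the log2 signals deposited by the authors, in the order of arrays 1, 2 and 3. The array medians lay between 7.77 and 7.83 and the first quartiles between 6.38 and 6.46, and arrays give no read depth, so that their number limits the precision. Unc5a, Unc5d, Dcc and Lrrc4 lay below the array medians on all 9 arrays, and whether those signals exceeded background was not tested. Exactly equal values on at least 2 arrays occurred in 6 of the 10 genes and in 50.9% of all transcript clusters. Smarca4 checks the labels: it stood at 10.50, 10.64 and 10.25 in knockdown cells, against 11.62, 11.53 and 11.56 in TNF-treated control cells (difference -1.11 ± 0.09, limma adjusted p = 0.00362). Smarca2 stood at 9.12, 9.38 and 9.12 in knockdown cells and at 9.51, 9.81 and 9.39 in TNF-treated control cells (-0.36 ± 0.20, limma adjusted p = 0.734, or 0.129 with the replicate number as a block). On the arrays Smarca4 was thus 2.15-fold lower and Smarca2, not called, 1.29-fold lower. The paper measured both transcripts by quantitative RT-PCR, a different measure from array signal. It reports both as reduced in BAF-knockdown fibroblasts, and by larger folds than those of the arrays.

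**Figure D1:**
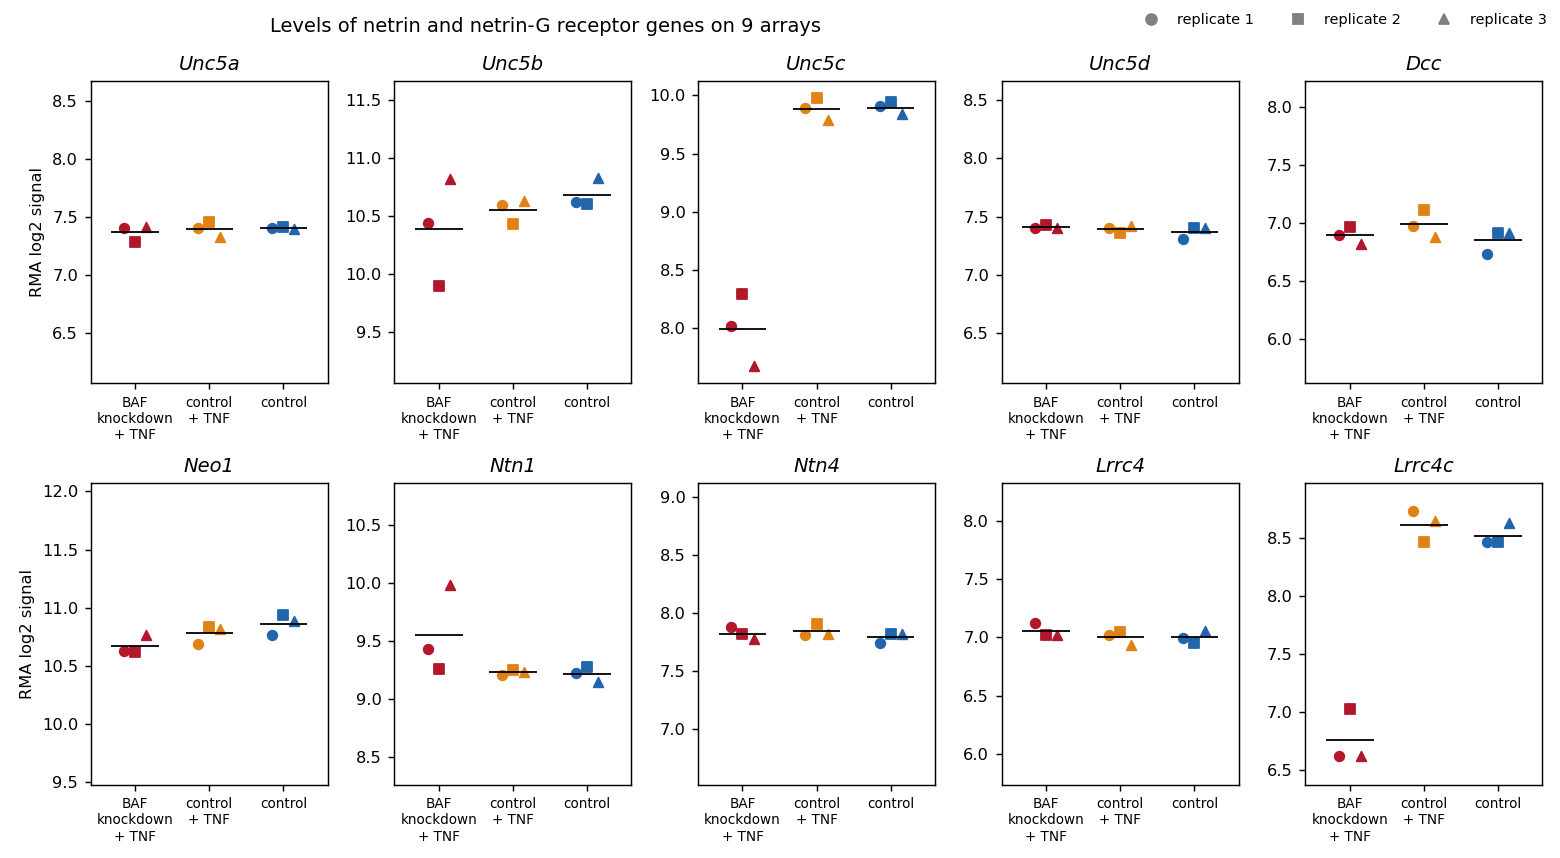
RMA log2 signal (y axis, spanning the same number of units in every panel but not starting at 0) of the 10 genes in TNF-treated BAF-knockdown, TNF-treated control and unstimulated control cells, with a symbol for each array, shaped by replicate number, and a line at each group mean. The knockdown arrays lie apart from the 6 control arrays in the panels of Unc5c and Lrrc4c, and their spread is widest for Unc5b and Ntn1.

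The UNC5 receptors differed among themselves in the knockdown. Unc5c (transcript cluster 10496519), a netrin-1 receptor with a cytoplasmic death domain, stood at 8.01, 8.29 and 7.67 in knockdown cells, at 9.89, 9.98 and 9.79 in TNF-treated controls, and at 9.91, 9.94 and 9.84 in unstimulated control cells. The 3 knockdown arrays all lay below the 6 control arrays, whose lowest value was 9.79. The means were 7.99 ± 0.31 in knockdown cells and 9.89 ± 0.10 in TNF-treated control cells (SD, n = 3 each). That is a difference of -1.89 ± 0.13 (SE), or 3.71-fold lower, and the 6th lowest of the 19698 knockdown differences. Between single knockdown and control arrays the difference ran from -2.30 to -1.49, and between arrays of the same number it was -1.88, -1.68 and -2.11. In bulk RNA, a lower level in every cell and fewer cells with the transcript cannot be told apart.

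The other UNC5 genes gave no call. Unc5b, the UNC5 receptor known from blood vessels, stood at 10.44, 9.90 and 10.83 in knockdown cells, at 10.60, 10.43 and 10.63 in TNF-treated controls and at 10.62, 10.61 and 10.83 in unstimulated control cells. Its knockdown arrays were spread to both sides of the TNF-treated control arrays and none lay above the highest unstimulated array (SD 0.46 in knockdown cells, 0.11 in TNF-treated and 0.12 in unstimulated control cells), and the difference was -0.16 ± 0.20 (95% interval -0.61 to 0.29, limma adjusted p = 0.92). Without knockdown array 2, the lowest, it was 0.08, and without knockdown array 3, the highest, it was -0.38. Unc5a, expressed mainly in the nervous system, stood at 7.41, 7.29 and 7.42 in knockdown cells and at 7.41, 7.46 and 7.33 in TNF-treated control cells (difference -0.03 ± 0.05, interval -0.15 to 0.09). Unc5d, likewise a mainly neural receptor, stood at 7.40, 7.42 and 7.40 in knockdown cells, against 7.40, 7.36 and 7.42 in TNF-treated control cells (0.02 ± 0.04, interval -0.09 to 0.12). In both, knockdown and control arrays overlapped. Unc5d was the only gene of the family with 2 transcript clusters, of which the brighter was used, and the dimmer one differed by -0.02 in the knockdown.

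Of the attractive receptors, neither was called. Neo1, which encodes neogenin, a receptor of both netrins and repulsive guidance molecules, stood at 10.62, 10.61 and 10.77 in knockdown cells, at 10.69, 10.84 and 10.81 in TNF-treated controls and at 10.76, 10.94 and 10.88 in unstimulated control cells. Its groups overlapped and its difference was -0.11 ± 0.07 (interval -0.27 to 0.05, limma adjusted p = 0.784). Dcc, the classical netrin-1 receptor of commissural axons, stood at 6.90, 6.97 and 6.82 in knockdown cells, at 6.97, 7.12 and 6.88 in TNF-treated controls and at 6.73, 6.92 and 6.92 in unstimulated control cells. Its differences were -0.10 ± 0.08 in the knockdown and 0.14 ± 0.08 after TNF. In both comparisons the groups overlapped and Dcc was not called.

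Neither netrin gene was called. Ntn1, which encodes netrin-1, the ligand of DCC and UNC5 receptors, stood at 9.43, 9.26 and 9.98 in knockdown cells, at 9.21, 9.25 and 9.23 in TNF-treated controls and at 9.22, 9.27 and 9.14 in unstimulated control cells. The knockdown arrays lay above the TNF-treated control arrays without overlap, but array 2 did so by 0.01, and it lay below 1 unstimulated array. The difference was 0.33 ± 0.16 (interval -0.03 to 0.68) and did not pass the test (limma adjusted p = 0.64, or 0.40 with the block). In size it exceeded 0.3, the limit that the study's methods set for BAF-inhibited genes without a p-value. The difference rested largely on knockdown array 3, without which it was 0.11. Ntn4, which encodes a basement membrane netrin that binds laminin, stood at 7.88, 7.82 and 7.78 in knockdown cells, at 7.81, 7.91 and 7.82 in TNF-treated controls and at 7.74, 7.82 and 7.82 in unstimulated control cells. Its difference in the knockdown was -0.02 ± 0.05 (interval -0.14 to 0.09).

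The netrin-G receptor genes Lrrc4c and Lrrc4 are close relatives with different values here. Lrrc4c (transcript cluster 10474096), whose product binds netrin-G1, stood at 6.63, 7.03 and 6.63 in knockdown cells, at 8.73, 8.47 and 8.65 in TNF-treated controls and at 8.47, 8.47 and 8.63 in unstimulated control cells. As for Unc5c, the 3 knockdown arrays lay below all control arrays. The means were 6.76 ± 0.23 in knockdown cells and 8.62 ± 0.13 in TNF-treated control cells (SD, n = 3 each), a difference of -1.86 ± 0.12 (SE), or 3.62-fold lower, and the 9th lowest of all genes. The knockdown level lay below the array medians. The fold is uncertain because signal over background was not tested. Single pairs of knockdown and control arrays differed by -2.11 to -1.44, and arrays of the same number by -2.11, -1.44 and -2.02.

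Lrrc4, whose product binds netrin-G2, stood at 7.13, 7.02 and 7.02 in knockdown cells, at 7.02, 7.05 and 6.94 in TNF-treated control cells and between 6.96 and 7.06 in unstimulated control cells. The groups overlapped, with a difference of 0.05 ± 0.05 in the knockdown (interval -0.07 to 0.18, limma adjusted p = 0.895).

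**Figure D2:**
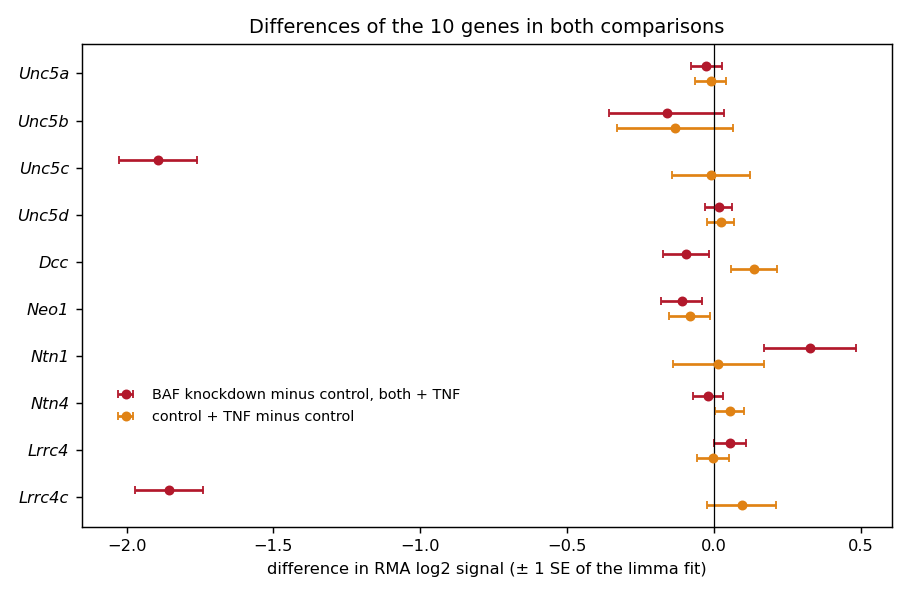
Difference in RMA log2 signal (x axis, points at the fitted difference, bars of 1 standard error of the limma fit over 9 arrays) for the 10 genes (y axis), for TNF-treated BAF-knockdown minus TNF-treated control cells and for TNF-treated minus unstimulated control cells. Unc5c lies at -1.89 and Lrrc4c at -1.86 in the knockdown, and the other 8 genes lie between -0.16 and 0.33.

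Counted over the family, 0 of the 8 genes other than Unc5c and Lrrc4c were called in the knockdown by limma, 0 with the block, 0 by the methods' t-test and 0 at an unadjusted p under 0.05. Over all 19698 genes, calls made up 0.137%, or 3.31% with the block, while 2.2% passed the methods' t-test and 8.43% had an unadjusted p under 0.05. Those 8 genes had differences on both sides of 0, with 5 below and 3 above, and the median over all genes was 0.01. Unc5c, Lrrc4c and Ntn1 were the 3 genes whose knockdown and TNF-treated control arrays did not overlap, and such separation was seen in 10.1% of all genes. For Unc5c and Lrrc4c that separation follows from the choice of the family.

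The answer to TNF within control cells was examined for all 10 genes, and 0 were called by limma, 0 with the block, 0 by the methods' t-test and 0 at an unadjusted p under 0.05. Of all genes 0.137% were called, or 0.396% with the block, while 0.584% passed the methods' t-test and 3.07% had an unadjusted p under 0.05. The differences ran from -0.13 for Unc5b to 0.14 for Dcc, and the adjusted p was 1 for each gene. In all 10 genes the TNF-treated and unstimulated control arrays overlapped, whereas 5.97% of all genes had groups that did not overlap. For Unc5c the difference was -0.01 ± 0.13, with a 95% interval of -0.32 to 0.29, and for Lrrc4c it was 0.09 ± 0.12, with an interval of -0.17 to 0.36. Intervals of the other 8 genes reached at most 0.58 to either side, the widest being that of Unc5b (-0.58 to 0.31). These intervals use a spread shared with the knockdown arrays. In a fit of the 2 control groups alone, the SE was 0.08 for Unc5b, 0.06 for Unc5c and 0.05 for Ntn1. In the main fit it was 0.20, 0.13 and 0.16. Of the family, only Dcc had a larger SE with 2 groups (0.082, against 0.078). Both comparisons use the TNF-treated control arrays, so their values for a gene are not independent.

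Across the 3 knockdown arrays, Unc5c and Lrrc4c were highest on array 2, at 8.29 and 7.03, as were Smarca4 and Smarca2, at 10.64 and 9.38. Unc5c and Smarca2 were highest on the arrays numbered 2 in both control groups too, where Smarca4 and Lrrc4c were not above the other arrays. The lowest knockdown array was 3 for Unc5c and Smarca4, whereas Lrrc4c stood at 6.63 on both array 1 and array 3. Whether the remaining Brg1 transcript bears on these levels was not tested.

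The genes most like Unc5c and Lrrc4c were found by the root-mean-square distance between array values, after each gene had been centred on its mean over the 9 arrays. The distance is a description, and it is set mostly by the step between knockdown and control arrays that all these genes share. The family was chosen with that step of Unc5c and Lrrc4c known, so their nearness to each other is in large part given by the choice. Each of Unc5c and Lrrc4c was the nearest gene to the other among all 19698, at a distance of 0.16 log2 units. Pcdh7, a protocadherin of cell adhesion, came next for both, at 0.18 from Unc5c and 0.22 from Lrrc4c. It stood at 9.63, 9.70 and 9.27 in knockdown cells, against 11.08, 11.18 and 10.95 in TNF-treated control cells. Unc5c was further neighboured by the glutathione transferase gene Mgst1 (0.26), the neuropeptide Y receptor gene Npy1r and the serpin gene Serpinf1 (both 0.30), and Lrrc4c by P2ry10b (0.28), Tcim (0.28) and the glutathione transferase gene Gsta4 (0.30). Knockdown differences of these neighbours lay between -1.94 for Serpinf1 and -1.48 for Gsta4. Within the family, the other 8 genes lay at 0.80 or more from both Unc5c and Lrrc4c.

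**Figure D3:**
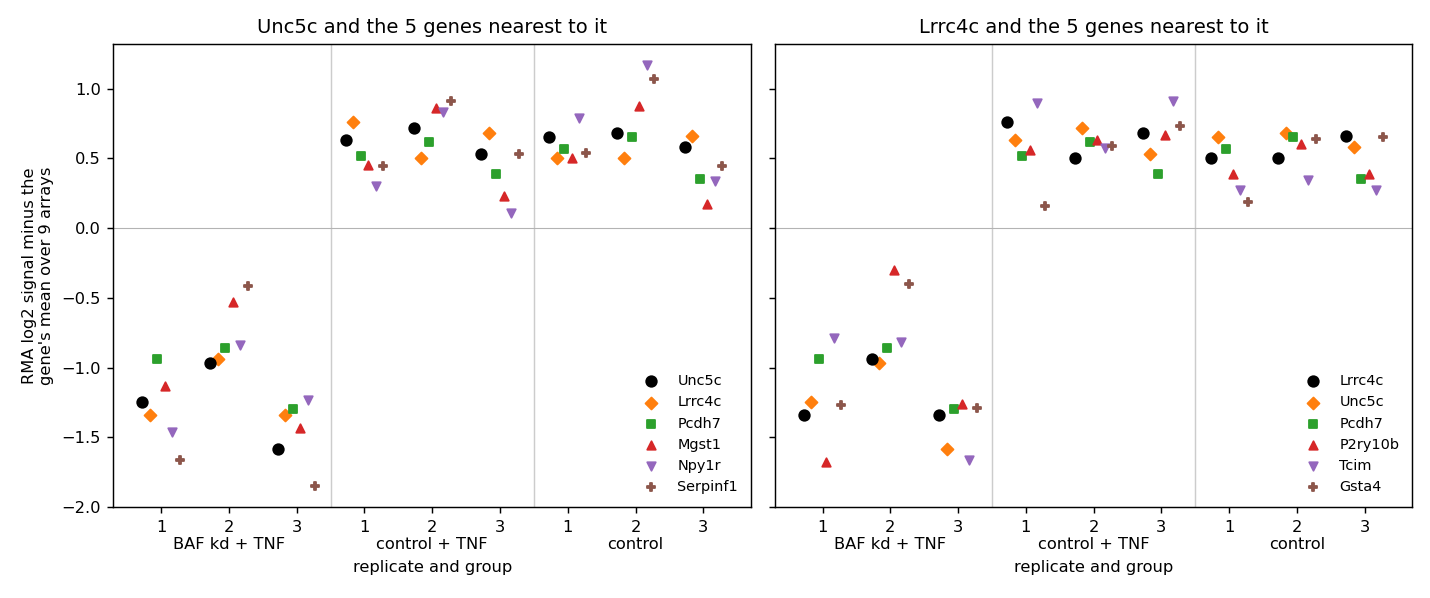
RMA log2 signal minus the mean of the gene over 9 arrays (y axis) on each array (x axis, by group and replicate number) for Unc5c, Lrrc4c and the 5 genes nearest to each, with 1 symbol per gene. All genes lie below 0 on the knockdown arrays and above 0 on the control arrays, and Serpinf1 and P2ry10b vary more among the knockdown arrays (SD 0.78 and 0.71) than Unc5c and Lrrc4c do (0.31 and 0.23).

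Other genes of the pathway were taken from 3 lists with 48 entries, 44 of them measured. Among 11 ligands, 0 were called in the knockdown by limma and 0 with the block, while 1 was higher (Ntng1, 0.14) and 1 lower (Flrt2) at an unadjusted p under 0.05, and 1 was lower by the methods' t-test, against 8.43% and 2.2% of all genes in either direction. Their median difference was -0.04, against 0.01 over all genes, with 3 of 11 above 0. Flrt2, which encodes a fibronectin-leucine-rich transmembrane protein that binds UNC5 receptors, stood at 7.55, 7.77 and 7.16 in knockdown cells and at 8.48, 7.99 and 8.49 in TNF-treated control cells. Those groups did not overlap, yet the difference of -0.83 ± 0.18 did not pass the test (limma adjusted p = 0.151, and with the block just above the threshold). Draxin, a secreted guidance protein that binds DCC, had -0.36 (limma adjusted p = 0.781).

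Among 15 other receptors and surface partners, 0 were called by limma without the block and 0 by the methods' t-test, while an unadjusted p under 0.05 was reached by 1 higher gene (Itga3) and 2 lower ones (Mcam and Itga6), against 8.43% of all genes. With the block 1 was called higher and 2 lower, against 3.31% of all genes in either direction. The median difference was -0.0043. Mcam, which encodes an adhesion molecule and netrin-1 receptor of vessels, stood at 9.06, 8.69 and 8.73 in knockdown cells and at 9.57, 8.97 and 9.61 in TNF-treated control cells (-0.56, limma adjusted p = 0.439, or 0.029 with the block). The integrin gene Itga3 stood at 10.41, 10.31 and 10.88 in knockdown cells and at 10.01, 9.85 and 10.24 in TNF-treated control cells (0.50, limma adjusted p = 0.388, or 0.0118 with the block). The latrophilin gene Adgrl2, whose product binds FLRT proteins, was lower only with the block (-0.36, limma adjusted p = 0.757, or 0.018), and its value is that of the brightest of 7 transcript clusters. Itga6, a laminin-binding integrin subunit, had the largest difference of the list (-0.74) and was not called in either fit (limma adjusted p = 0.58).

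Among 18 intracellular effectors, 0 were called by limma without the block and 0 by the methods' t-test, and 1 was higher (Vasp, 0.20) and 2 lower (Enah and Maged1) at an unadjusted p under 0.05, against 8.43% of all genes. With the block 1 was called lower, against 3.31% of all genes. The median difference was 0.01. Enah, an actin regulator of the Ena/VASP family downstream of netrin receptors, stood at 10.76, 10.93 and 10.80 in knockdown cells and at 11.11, 11.18 and 11.04 in TNF-treated control cells, a difference of -0.28 ± 0.08 (limma adjusted p = 0.256, or 0.0381 with the block). Maged1, whose product binds UNC5 receptors, differed by -0.23 (limma adjusted p = 0.423).

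After TNF, 0 genes of the 3 lists were called by limma, 0 with the block and 0 by the methods' t-test, and 1, Flrt3, was higher at an unadjusted p under 0.05 (0.31), against 3.07% of all genes. The medians of the lists were 0.0047, -0.03 and -0.02, against -0.002 over all genes. The largest differences were those of Flrt3 and Rgma (-0.12) among ligands, Itga6 (-0.23) and Itga3 (-0.16) among receptors and partners, and Dock1 (-0.09) and Trim67 (-0.08) among effectors.

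**Figure D4:**
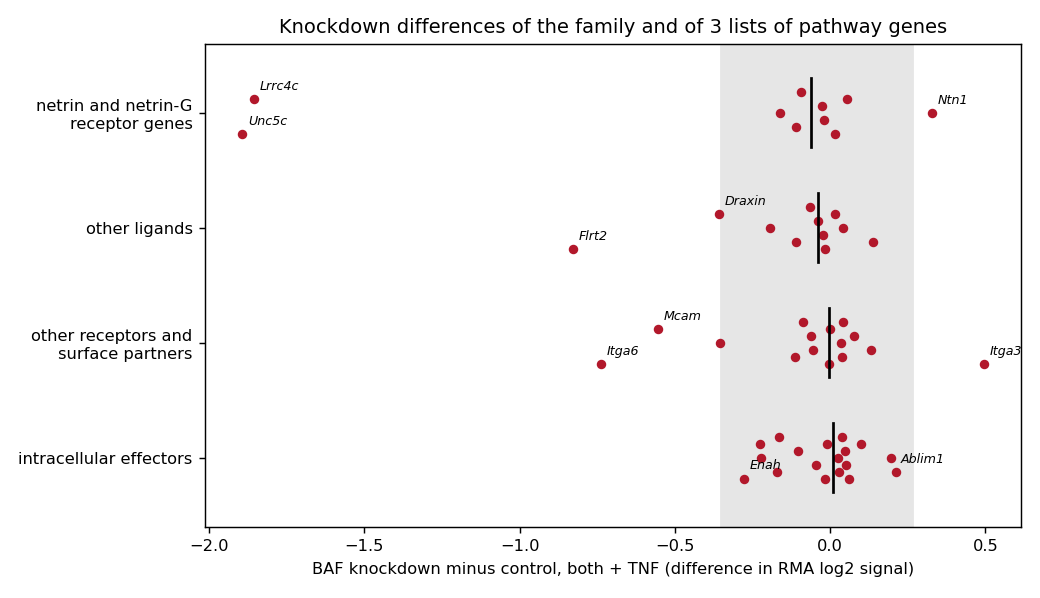
Difference in RMA log2 signal between TNF-treated BAF-knockdown and TNF-treated control cells (x axis) for the 10 genes of the family and 3 lists of pathway genes (y axis), with 1 point per gene, a black line at the median of each group and grey shading over the range from -0.35 to 0.27 that holds the middle 95% of all genes. Unc5c and Lrrc4c lie near -1.9, Flrt2 at -0.83, and most other points lie within the shading.

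The cell type was checked with marker genes. The fibroblast markers Vim and Col1a1 had means of 13.98 and 12.63 over the 9 arrays, and 11 of 12 fibroblast markers lay above the first quartile on every array (Fap, at 4.83, did not). The log2 of the mean signal of these 12 markers lay between 12.16 and 12.21 on knockdown arrays. It lay between 12.32 and 12.49 on TNF-treated control arrays and 12.42 and 12.53 on unstimulated arrays, and the brightest markers weigh most in it. Of 12 neuronal markers 5 lay below the first quartile on every array, and their mean signal was 7.23 to 7.30, 7.32 to 7.36 and 7.39 to 7.42 in the same groups. Both lists were thus lowest on the knockdown arrays. So was the list of intracellular effectors (11.08 to 11.11, 11.16 to 11.17 and 11.13 to 11.19), so a lower list mean was not particular to fibroblast markers. Neither marker list had a gene called by limma in the knockdown. With the block 3 fibroblast markers (S100a4, -1.18, Col3a1, -0.93, and Pdgfra, -0.57) and 1 neuronal marker (Map2, -0.35), of 12 each, were lower, against 3.31% of all genes called in either direction. At an unadjusted p under 0.05, 5 fibroblast markers were lower and 0 higher, and 1 neuronal marker was lower and 1 higher, against 8.43% of all genes. By the methods' t-test 2 fibroblast markers and 0 neuronal markers were lower, against 2.2% of all genes. The median difference was -0.15 for fibroblast markers (1 of 12 above 0) and -0.0066 for neuronal markers (6 of 12 above 0), against 0.01 over all genes. The part of either marker list in the levels of Unc5c and Lrrc4c was not tested. Mean signals of 7 leukocyte markers (7.84 to 8.01, 7.86 to 7.87 and 7.85 to 7.88) and of 9 epithelial and endothelial markers (7.22 to 7.36, 7.19 to 7.29 and 7.18 to 7.29) overlapped between the groups. By array, 2 or 3 of the 7 leukocyte markers and 1 or 2 of the 9 epithelial and endothelial markers lay below the first quartile. Most transcript clusters lie above a first quartile by definition, so counts above it do not tell fibroblasts from epithelial or endothelial cells.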

How the data were processed

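RNA of 9 cultures was measured on Affymetrix mouse Gene 1.0 ST arrays. The deposited values are log2 signals that the authors obtained by RMA (background correction, quantile normalization and median polish), with the affy package of Bioconductor per the study's reporting summary. Quantile normalization gives all arrays nearly the same distribution, so a shift of all genes together would not be seen. Of 27024 transcript clusters, 21319 have 1 gene symbol in the platform annotation, 1430 several and 4275 none. For genes with more than 1 cluster, the one with the highest mean was used, giving 19698 genes.

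Differences were fitted with limma 3.58.1 in R 4.3.3 as 1 mean per group over the 9 arrays, which leaves 6 residual degrees of freedom. Tests were two-sided, Benjamini-Hochberg adjustment ran over all 19698 genes, and genes with an adjusted p under 0.05 are termed called. Values after ± are SE of the fit unless SD is named, and intervals are 95%. Arrays with the same replicate number deviated together from their group means (correlations of 0.21 to 0.724, against -0.566 to 0.0111 for different numbers), and replicates were prepared on different days, so a second fit took the number as a block.

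The members and lists were chosen with earlier results of these data known. Named were all members, of each list the 2 largest differences per comparison where none was called, and the 5 nearest genes of Unc5c and Lrrc4c. Genes called only with the block or at an unadjusted p under 0.05 were named after their values were seen. Alternatives were the block, leaving out arrays, leaving out genes with a mean below 6.61, the mean of all clusters of a gene, median centring, array weights, fits of 2 groups and the methods' t-test (p under 0.05 with a difference over 0.35 for TNF or 0.3 for the knockdown). The study's methods state that t-test for induction only, and define BAF dependence by a difference over 0.3 without a p-value. The p limit for the knockdown was therefore added here. Differences over 0.3 in size that missed it, such as those of Ntn1, Draxin, Mcam, Itga3, Itga6 and Adgrl2, meet the study's limit on size alone. Sequences are from RefSeq. Figures were drawn with matplotlib 3.10.9.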

Additional observations from a re-analysis of the deposited data

How the results depend on the processing

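The differences of Unc5c and Lrrc4c in the knockdown, known when the family was chosen, stayed negative under every alternative. They ran from -2.04 to -1.73 and from -2.06 to -1.73 with arrays left out (Lrrc4c reached -2.06 in the blocked fit without the arrays numbered 2, chosen after seeing the data). Their sign is no support, since every pair of a knockdown and a TNF-treated control array differed by -1.44 or lower. Leaving out arrays could therefore not turn it. Of the 18 tested differences of the family, 0 were called under any of the 20 alternatives. The sign of 9 of them changed. With arrays left out, the TNF difference of Unc5a ran from -0.0398 to 0.0232, of Unc5c from -0.0561 to 0.0391, of Unc5d from -0.0114 to 0.0552, of Ntn1 from -0.0223 to 0.0450 and of Lrrc4 from -0.0493 to 0.0569. The knockdown difference of Unc5a ran from -0.0822 to 0.0440, of Unc5d from -0.0104 to 0.0340 and of Ntn4 from -0.0651 to 0.0131. That of Unc5b ran more widely, from -0.379 to 0.0829. The mean of both clusters turned the knockdown difference of Unc5d to -0.0032. The number of all genes called, 27 in each comparison, changed more. After TNF it was 78 with the replicate block, 41 with array weights, 15 with 2 groups, 115 by the methods' t-test and 1 of these after adjustment, and in the knockdown 652, 62, 8, 433 and 0. Without single arrays it ran from 9 (TNF-treated control 1) to 28 after TNF (11 and 13 without unstimulated 1 and 3, 17 and 13 without TNF-treated control 2 and 3). In the knockdown it ran from 6 (TNF-treated control 3) to 154 (knockdown 2), with 10 and 17 without unstimulated 1 and 2, 8 and 11 without TNF-treated control 1 and 2, and 8 and 9 without knockdown 1 and 3. With the block and the 3 arrays of 1 replicate number left out, it was 0, 76 and 18 after TNF and 0, 648 and 100 in the knockdown without numbers 1, 2 and 3. The causes were not tested. Beside Mcam, Itga3, Adgrl2 and Enah, and the marker genes, the block changed no call named here. With 3 arrays per group and 4 genes of the family below the array medians, small differences cannot be told from none.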
